A study of Mus musculus with 10 samples.

Results

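The expression of 8 genes of cholesterol synthesis was followed in mouse bladder: Hmgcs1, Sqle, Idi1, Fdps, Fdft1 and Lss, which encode enzymes, and Insig1 and Srebf2, which encode regulators. They were chosen by name and matched by gene identifier, and although the rule itself uses no measured value, they were chosen with earlier results of these data known. They are 8 of the 55536 genes in the count tables. All 8 passed the filter on low counts in each comparison. Although the set was named for synthesis and uptake, none of the 8 is an uptake receptor, and genes of uptake were therefore read from a wider list.

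Cells make cholesterol from acetyl-CoA in a long series of steps. The early steps, the mevalonate arm, build the isoprenoid farnesyl pyrophosphate, which also feeds protein prenylation, dolichol and ubiquinone, and the later steps, the sterol arm, turn it into squalene, lanosterol and cholesterol. SREBP-2, the product of Srebf2, is held in the endoplasmic reticulum by Insig proteins while sterols are plentiful; when sterols fall it is cut and moves to the nucleus, where it binds sterol regulatory elements of genes for cholesterol synthesis and uptake. In the bladder, the umbrella cells of the urothelium carry an apical membrane packed with uroplakin plaques and rich in cholesterol.

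The samples were bladder tissue of C57BL/6 mice in 3 groups: 4 wild-type (WT), 3 OMD-/- and 3 PRELP-/- libraries. OMD (osteomodulin) and PRELP are secreted small leucine-rich proteoglycans of the extracellular matrix, and the knockouts are constitutive, the coding exons having been replaced by a β-galactosidase reporter. Both single knockout lines keep the other gene, the age and sex of the mice are not given with the samples, and the study's text speaks of isolated bladder epithelia where the sample records describe homogenised bladder tissue. The group sizes in the study's text also differ from those of the sample records, which were followed here. Each library is labelled as a separate sample, but nothing says that each came from its own mouse, so the p-values measure the spread between libraries.

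Total counts ran from 20391437 to 25905707 in 9 libraries and reached 46269079 in WT replicate 1. As a check of the labels, Prelp counts were 74, 46 and 46 in PRELP-/- against 4848 to 15890 in WT. In OMD-/- Prelp was higher than in WT, at a log2 fold change of 1.59 ± 0.119 (SE). Its adjusted p was 1.28e-05 in edgeR's quasi-likelihood test, Benjamini-Hochberg adjusted. Omd had 0 counts in each OMD-/- library and only 0, 1, 8 and 12 in WT, so that the OMD-/- label could hardly be checked on its own gene. Uroplakin genes were abundant in every library (Upk2 from 971 to 2004 CPM, counts scaled to library size), whereas the smooth muscle gene Myh11 lay between 46.4 and 517 CPM and Adipoq, a fat cell marker, at or below 0.0877 CPM. Of the other fat cell markers listed, Plin1, Cfd, Cidec, Lep and Retn stayed at or below 0.4825 CPM. Fabp4, however, had 519 to 1866 CPM and Plin4 10.55 to 48.9 CPM. Several libraries stood apart. PRELP-/- replicate 1 was the farthest from the others, and the summed level of 4 Y-linked genes was 204 and 175 CPM in WT replicates 1 and 2 but 0 and 0.049 in WT replicates 3 and 4, 97.9, 18.1 and 18.0 in PRELP-/- and 17.0, 0.801 and 0.722 in OMD-/-. PRELP-/- replicates 2 and 3, OMD-/- replicates 2 and 3, and WT replicates 3 and 4 were unusually close pairs, although no pair came down to sampling noise: the median chi-square over genes was 0.995, 1.11 and 1.37, where counting error alone gives 0.455.

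The promoters of the members changed in OMD-/- are shown first, because sterol regulation acts there. RefSeq promoter entries (GRCm38.p6) were matched for 5 of the 8 members: Hmgcs1, Idi1, Lss, Insig1 and Srebf2. The last 150 bases before the RefSeq transcription start are printed 5′ to 3′ for the 3 of these that passed the test in OMD-/-. Capitals mark exact matches, on either strand, to the sterol regulatory element core TCACNCCAC, the CCAAT box CCAAT and the GC box GGGCGG. The windows are chr13:119690201-119690350, chr13:8885456-8885605 and chr15:82147119-82147268, all on the forward strand.
Hmgcs1: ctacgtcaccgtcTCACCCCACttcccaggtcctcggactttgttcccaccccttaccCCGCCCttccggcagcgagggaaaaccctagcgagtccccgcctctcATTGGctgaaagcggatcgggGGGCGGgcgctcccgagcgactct
Idi1: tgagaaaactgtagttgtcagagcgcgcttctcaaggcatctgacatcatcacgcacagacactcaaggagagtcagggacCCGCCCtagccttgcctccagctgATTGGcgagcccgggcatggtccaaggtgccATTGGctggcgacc
Srebf2: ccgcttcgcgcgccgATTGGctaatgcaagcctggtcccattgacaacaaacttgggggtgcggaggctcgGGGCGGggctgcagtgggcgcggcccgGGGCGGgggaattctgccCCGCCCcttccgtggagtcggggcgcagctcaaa
The core TCACNCCAC occurred in Hmgcs1 alone of the 5, where the run of capitals near the start of its line lies 137 bases before the transcription start, and in 1.44% of 27025 genes over 300 bases of promoter. Its shorter form CACCCCAC, which lies inside the same match, was present in 3.30% of genes and, among 51 sterol and lipid pathway genes with an entry, in Hmgcs1, Acat2 and Gpam. The CCAAT and GC boxes were found in all 5 members over the whole 300 bases and in 41.1% and 38.2% of genes. These are matches of letters in a window, not mapped binding sites.

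The level of the members was compared between genes per kilobase of exon. In WT, Srebf2 was the highest at 45.99 ± 2.15 CPM per kb (SD, n = 4), followed by Hmgcs1 at 28.5 ± 2.62. Sqle (20.9 ± 1.64), Fdft1 (20.4 ± 1.45) and Insig1 (19.0 ± 4.29) came next, and their ranges overlapped, so these neighbours did not differ beyond their spread. Lss (8.95 ± 0.547), Idi1 (4.33 ± 1.05) and Fdps (1.40 ± 0.244) were lower and did not overlap each other. The order depends on the exon length used. In Lss 54.4% and in Sqle 50.3% of exon bases lie only in transcripts not annotated as protein coding. The low place of Fdps carries a further limit of the annotation. Of its 4208 exon bases, 26.7% are shared with Gm43738 on the same strand, and so are 63.25% of the bases of its protein-coding transcripts. Of the unshared bases, 78.8% lie only in transcripts not annotated as protein coding. Where its reads fall, and whether reads on shared bases were counted, was not tested. Fdft1 shares 18.3% of its exon bases with Ctsb on the opposite strand. Over the libraries Ctsb had a mean of 625 CPM and Fdft1 of 90.05 CPM. Hmgcs1 shares 12.1% with Gm48342, also on the opposite strand, which was near 0. Whether counting used the strand is not given in the sources used here, so reads of such partners cannot be told apart.

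Loss of OMD was compared with WT to ask which members differ in its absence. In OMD-/-, Hmgcs1, Idi1 and Fdps, which encode enzymes of the mevalonate arm, were lower and Srebf2 was higher. In all, 4 of 8 members passed the test (edgeR's quasi-likelihood test, Benjamini-Hochberg adjusted), 3 of them lower, where 29.4% of 16647 tested genes were called, 15.1% lower and 14.3% higher. The members' median log2 fold change was -0.07 and that of all tested genes was -0.0002. Groups did not overlap for 3 members, against 39% of all tested genes. The share of members called is therefore read against a background in which 29.4% of genes were called.

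Srebf2 (chr15:82147181-82205379, GRCm38, forward strand) encodes the SREBP-2 precursor. Its level was 318, 352, 321 and 331 CPM in WT and 429, 387 and 392 CPM in OMD-/-. Every OMD-/- library lay above every WT library, and the log2 fold change was 0.26 ± 0.079 (SE), a 1.20-fold rise with an adjusted p of 0.0285 in edgeR's quasi-likelihood test, Benjamini-Hochberg adjusted. Under 15 other settings the difference was always positive, but it passed in only 5, with adjusted p from 0.00529 to 0.245. Among these, it failed when any of WT replicates 1, 3 and 4 or any OMD-/- library was left out. In PRELP-/- the level was 311, 415 and 390 CPM, with replicate 1 inside the WT range and the others above it, and the log2 fold change of 0.14 ± 0.148 had an adjusted p of 0.568. Without PRELP-/- replicate 1 it was 0.27, with an adjusted p of 0.0379.

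Insig1 (chr5:28071363-28078662, forward strand) encodes the protein that holds the SREBP complex in the endoplasmic reticulum and is itself a target of SREBP-2. It had 47.3, 47.2, 69.7 and 70.8 CPM in WT and 56.6, 57.5 and 59.9 CPM in OMD-/-. The WT libraries were split into a low pair and a high pair, the low pair being those with Y-linked counts, and OMD-/- lay between the pairs. Tissue markers differed between the same pairs. Myh11 had 107.5 and 96.3 CPM in the low pair and 517 and 429 CPM in the high pair. The endothelial gene Pecam1 had 118 and 124 against 55.4 and 51.8 CPM. What the split of Insig1 follows was not tested. For Insig1 in OMD-/- the log2 fold change was -0.04 ± 0.161 with an adjusted p of 0.881. In PRELP-/- it had 91.0, 58.4 and 56.9 CPM, replicate 1 being above every other library, and the log2 fold change was 0.20 ± 0.236 with an adjusted p of 0.616 by the same test of edgeR.

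Hmgcs1 (chr13:119690379-119708260, forward strand) encodes HMG-CoA synthase, an early enzyme of the mevalonate arm. Its level was 128, 121, 126 and 148 CPM in WT and 94.4, 105 and 109 CPM in OMD-/-. All OMD-/- libraries were below all WT libraries: the log2 fold change was -0.37 ± 0.098, a 1.29-fold lower level with an adjusted p of 0.0171 (edgeR's quasi-likelihood test, Benjamini-Hochberg adjusted). The direction held in all 15 other settings and passed in 10, and it was lost without OMD-/- replicate 1 or 2. PRELP-/- showed 71.6, 99.95 and 108 CPM, again below every WT library, and was 1.43-fold lower. The log2 fold change of -0.52 ± 0.169 had an adjusted p of 0.0994 and did not pass. Leaving out PRELP-/- replicate 1 gave -0.35 with an adjusted p of 0.0447.

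Idi1 (chr13:8885501-8892451, forward strand) encodes isopentenyl diphosphate isomerase, which makes the isoprenoid units interconvert. WT libraries had 15.3, 10.8, 14.7 and 19.8 CPM and OMD-/- libraries 12.6, 7.38 and 5.36 CPM. OMD-/- replicates 2 and 3 were below all WT libraries, whereas replicate 1 lay within the WT range. The log2 fold change was -0.88 ± 0.280, a 1.84-fold lower level with an adjusted p of 0.0394, and it passed in 7 of 15 other settings, always negative. It failed without OMD-/- replicate 2 or 3 or without WT replicate 1, 3 or 4. In PRELP-/- Idi1 had 26.7, 10.3 and 11.8 CPM, replicate 1 being the highest of all libraries replicate 2 just below the WT range and replicate 3 inside it, and the log2 fold change was 0.07 ± 0.349 with an adjusted p of 0.918. With sample quality weights in limma-voom this value turned to -0.51, with an adjusted p of 0.0207.

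Fdps (chr3:89093588-89101959, reverse strand) encodes farnesyl pyrophosphate synthase at the branch between sterols and other isoprenoids. It had 5.86, 4.84, 7.28 and 5.53 CPM in WT and 4.06, 3.37 and 2.57 CPM in OMD-/-, from as few as 56 counts. The groups did not overlap, and the log2 fold change of -0.84 ± 0.215 (1.79-fold lower) had an adjusted p of 0.0140. It passed in 11 of 15 other settings and not without OMD-/- replicate 2 or 3. PRELP-/- had 7.95, 3.60 and 4.84 CPM, spread across and around the WT range, with a log2 fold change of -0.14 ± 0.288 and an adjusted p of 0.793. With sample quality weights in limma-voom the log2 fold change was -0.62, with an adjusted p of 0.0159. How many of these reads came from coding transcripts was not tested.

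The 3 members of the sterol arm did not pass. Fdft1 (chr14:63145150-63179578, reverse strand), squalene synthase, had 84.2, 83.5, 95.3 and 81.9 CPM in WT, 92.8, 80.3 and 85.8 CPM in OMD-/- and 120, 90.8 and 85.9 CPM in PRELP-/-. Sqle (chr15:59315077-59331192, forward strand), squalene epoxidase and a rate-limiting step of the sterol arm, had 110, 107, 121 and 127 CPM in WT, 122, 104 and 103 CPM in OMD-/- and 110, 110 and 116 CPM in PRELP-/-. Lss (chr10:76531588-76557138, forward strand), lanosterol synthase, had 94.7, 105, 92.3 and 93.7 CPM in WT, 125, 88.0 and 85.7 CPM in OMD-/- and 85.0, 106 and 99.4 CPM in PRELP-/-. Groups overlapped for each of these genes, and the log2 fold changes in OMD-/- were -0.02 ± 0.086 for Fdft1, -0.11 ± 0.093 for Sqle and 0.02 ± 0.118 for Lss, with adjusted p of 0.881, 0.407 and 0.924. In PRELP-/- they were 0.17 ± 0.158, -0.08 ± 0.125 and -0.02 ± 0.132, with adjusted p of 0.514, 0.729 and 0.940 in edgeR. For Lss and Sqle the highest OMD-/- library was replicate 1, and replicates 2 and 3 were below every WT library.

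**Figure D1:**
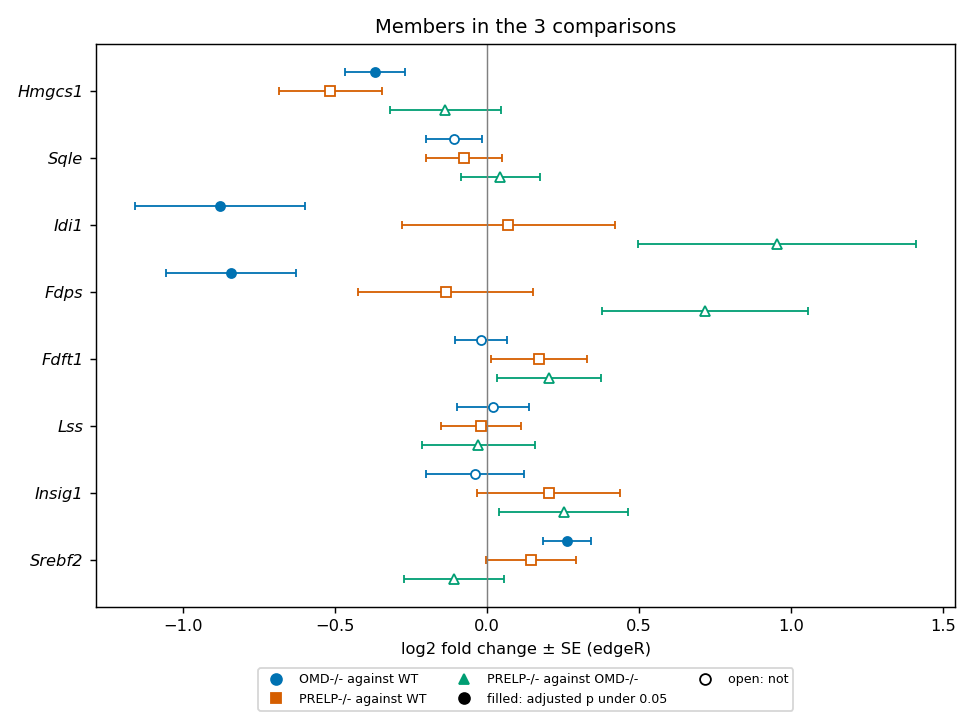
Log2 fold change ± SE of each member in the 3 comparisons (edgeR); filled symbols have an adjusted p under 0.05. Only Hmgcs1, Idi1, Fdps and Srebf2 in OMD-/- against WT are filled, and the bars of the PRELP-/- comparisons are wider.

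Loss of PRELP was compared with WT in the same way. None of 8 members was called by edgeR's quasi-likelihood test, Benjamini-Hochberg adjusted, where 7.29% of 16581 genes were, and 1, Hmgcs1, had an unadjusted p under 0.05. DESeq2 called 0 members and 13% of all genes. With sample quality weights, limma-voom called 4 members, Hmgcs1, Idi1 and Fdps lower and Srebf2 higher, and 42.1% of all genes. The members' median log2 fold change was 0.03 and that of all genes 0.02, and 1 member, Hmgcs1, did not overlap, against 30.3% of genes. Leaving out replicate 1 raised the genes called to 3807 (22.2%) and the members called to 2. Both knockouts were set against the same 4 WT libraries, so the comparisons share their controls.

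The knockouts were then compared directly. No member passed (PRELP-/- against OMD-/-), 0 had an unadjusted p under 0.05 and DESeq2 also called 0, where 1 of 15805 genes, Prelp itself (0.00633%), was called by edgeR. Idi1 had the largest difference, 0.95 ± 0.458 in log2, with an adjusted p of 0.690 by edgeR's quasi-likelihood test, and Fdps followed at 0.72 ± 0.339. The replicate numbers of the knockouts deviated together here (r of 0.384, 0.273 and 0.235), and with the replicate block 43 genes and 0 members were called.

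The other enzymes of the pathway were then read in order. In OMD-/-, 8 of 21 enzymes passed: 4 lower (Hmgcs1, Idi1, Fdps and Sc5d) and 4 higher (Lbr, Nsdhl, Ebp and Dhcr7), beside 29.4% of all tested genes called, 15.1% lower and 14.3% higher. In the mevalonate arm 3 of 8 were lower and 0 higher, all of them members. In the sterol arm, 4 of 13 were higher and 1 lower. Ebp, which encodes the sterol isomerase, had a log2 fold change of 0.44 (adjusted p of 0.0106), Nsdhl, a sterol demethylation enzyme, 0.35 (0.0115), Dhcr7, the last-step reductase, 0.30 (0.0491) and Lbr, a reductase of the inner nuclear membrane, 0.27 (0.0394). Sc5d, the sterol desaturase, fell by 0.34 (0.0165). With all 3 groups in one fit, or with close libraries summed in pairs, 0 of 21 passed. In PRELP-/- 0 of the 21 passed in edgeR, 5 having an unadjusted p under 0.05. DESeq2 called 2 of the sterol arm higher, where it called 934 of 19645 genes higher.

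**Figure D2:**
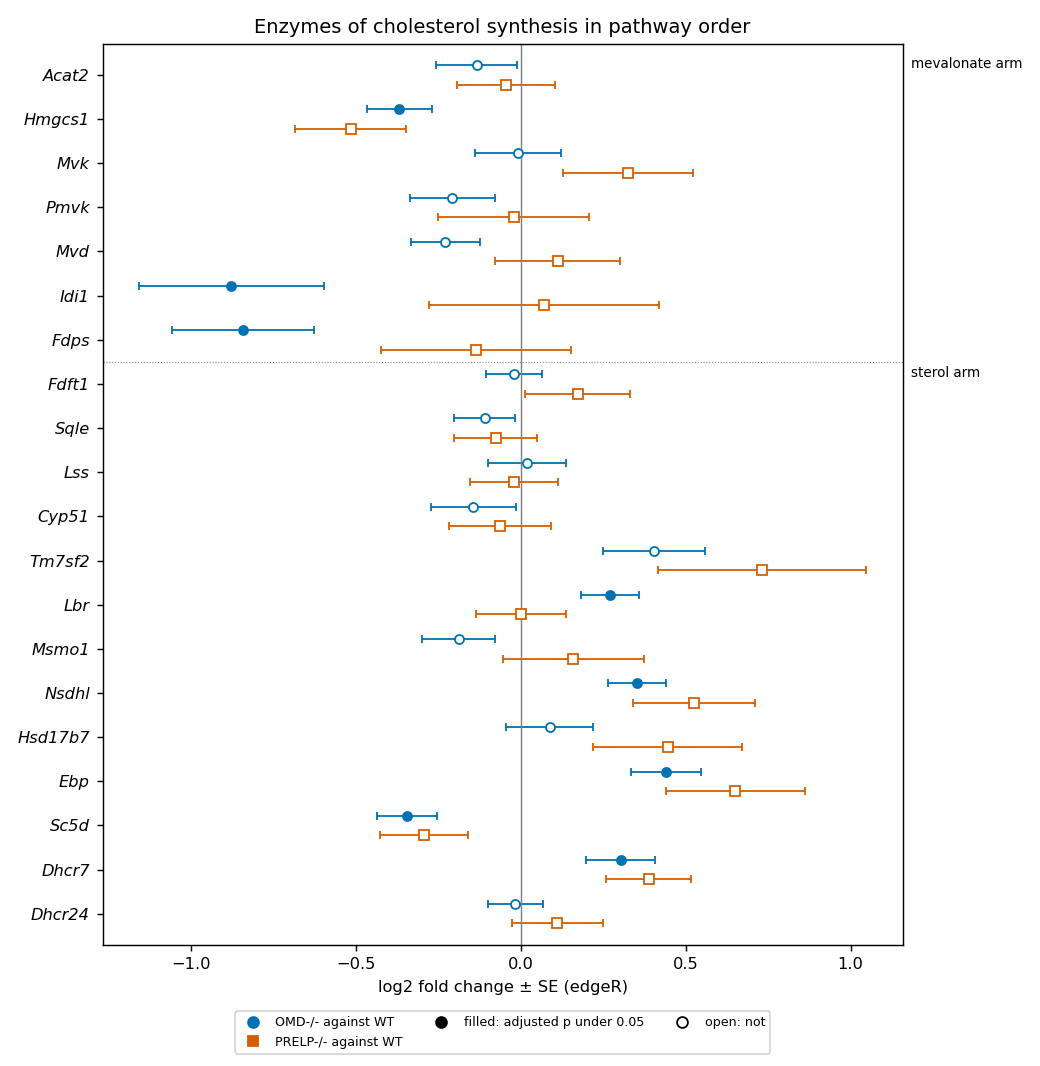
Log2 fold change ± SE of the reported enzymes of cholesterol synthesis against WT, in pathway order, with circles for OMD-/- and squares for PRELP-/- and filled symbols for an adjusted p under 0.05. The 3 filled symbols of the mevalonate arm lie below 0, and in the sterol arm 4 lie above 0 and Sc5d below.

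Uptake, regulation, efflux and fatty acid genes gave the surroundings of the members. In OMD-/-, 4 of 10 uptake and transfer genes were higher and 0 lower (median log2 fold change 0.38), where 14.3% of all tested genes were called higher and 15.1% lower: Scarb1, the high density lipoprotein receptor, 0.84, Lipa, the lysosomal acid lipase, 0.69, and Npc2 (0.50) and Npc1 (0.40), which move cholesterol out of the lysosome. Among 7 SREBP regulators Srebf2 was higher and Insig2 lower (-0.32, adjusted p of 0.0374), and Srebf1, which encodes the fatty acid regulator SREBP-1, was at 0.09 (0.458). Against the same 14.3%, 5 of 10 efflux and ester genes were higher: the exporters Abcg1 (0.91), Abca1 (0.47) and Abcg4 (0.56), the lipoprotein gene Apoe (0.58) and Soat1 (0.65), which esterifies cholesterol. Of 12 fatty acid genes 6 were higher, again beside 14.3% of all tested genes, the desaturases Scd1 (0.86), Scd2 (0.49), Fads1 (0.46) and Fads2 (0.35), the carboxylase Acaca (0.54) and Acly (0.41), which supplies acetyl-CoA, and the elongase Elovl6 was lower (-0.31). In PRELP-/- 0 of these genes passed, with Srebf1 at -0.01 (adjusted p of 0.985) and Scarb1 at 0.78 (0.052) in edgeR's test. Without PRELP-/- replicate 1, 5 of 10 uptake genes, 3 of 10 efflux genes and 6 of 12 fatty acid genes were higher there. So were 1835 of all 17120 tested genes. In OMD-/- the counts called higher ran from 2 to 7, 2 to 6 and 1 to 7 over the other settings. Over the same settings, all genes called higher ran from 624 of 18310 to 3663 of 16647.

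Marker genes of the cell types in the bladder were read beside the members. Of all tested genes, 14.3% were called higher in OMD-/- and 232 of 16581 in PRELP-/-. The summed level of 8 fibroblast markers was 8265 to 9492 CPM in WT, 17970 to 21700 in OMD-/- and 9745 to 19900 in PRELP-/-, with 5 of 8 called higher in OMD-/- and 2 in PRELP-/-. Most of the rise in OMD-/- lay in the collagens Col1a1 (means of 1968 CPM in WT and 5944 in OMD-/-), Col1a2 (2313 and 6327) and Col3a1 (1996 and 4664). Pdgfra and Pi16 were also called higher there, whereas Dcn, Lum and Dpt were not, Dpt being lower at a log2 fold change of -0.66. The summed level of 12 urothelial markers was 13580 to 14880 CPM in WT, 16450 to 21880 in OMD-/- and 18720 to 28430 in PRELP-/-, with 4 and 1 called higher in the knockouts. Smooth muscle markers summed to 317 to 1297 CPM in WT, 404 to 829 in OMD-/- and 242 to 254 in PRELP-/-, with 0 of 8 called, and 5 of 8 leukocyte markers were higher in OMD-/- (263 to 320 CPM in WT, 265 to 558 in OMD-/-, 159 to 275 in PRELP-/-). Endothelial markers summed to 176 to 411, 478 to 556 and 318 to 549 CPM, with 0 of 6 called in either knockout. The part of these differences in the members' values was not tested, and in bulk tissue fewer cells of a type and less RNA per cell cannot be told apart. With a yes-or-no covariate for Y-linked genes at 1 CPM or more, the same 4 members were called in OMD-/-, beside 34.8% of all genes. The level of the Y-linked genes was not modelled, and the covariate cannot be read as sex. In its class without Y-linked genes, the X-linked gene Xist had 23019 and 27694 counts in WT replicates 3 and 4. It had 2094 and 1677 counts in OMD-/- replicates 2 and 3 of the same class.

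**Figure D3:**
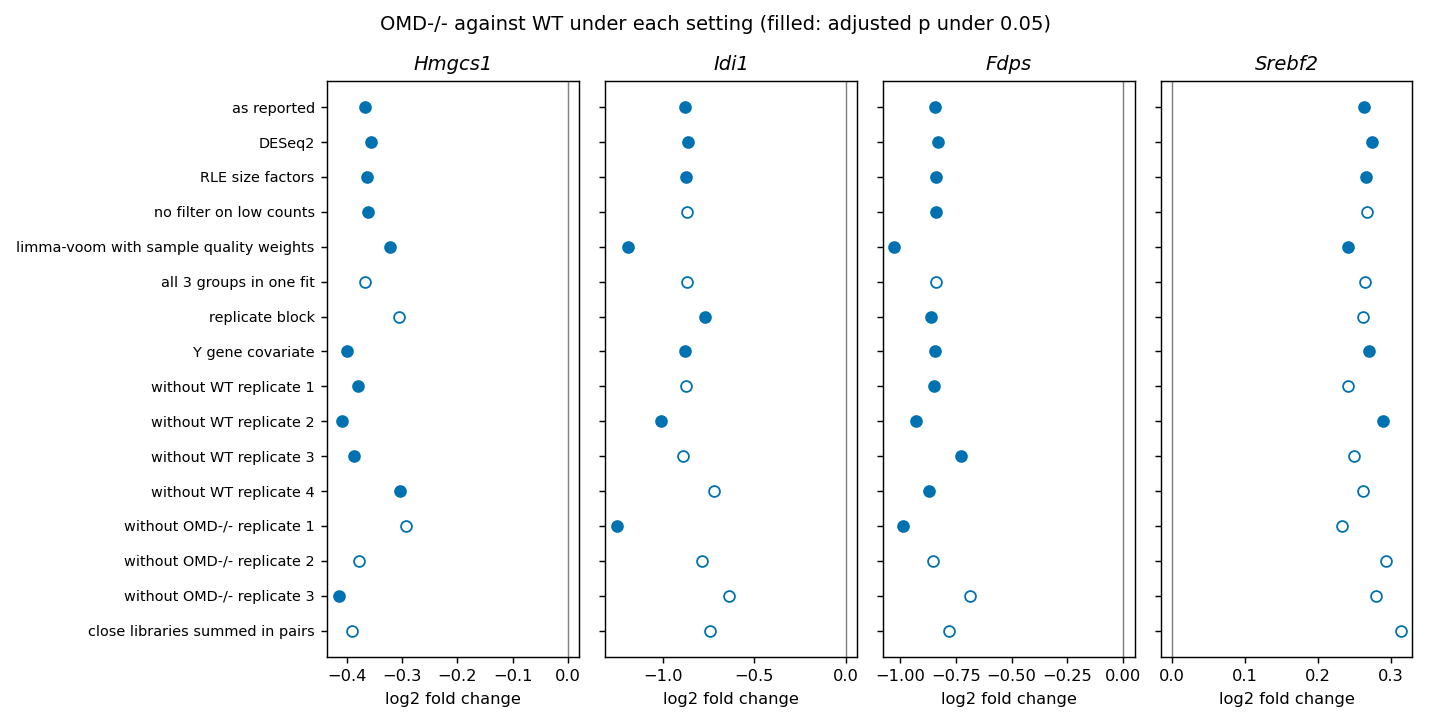
Log2 fold change of the 4 called members in OMD-/- against WT under the reported fit and 15 other settings, filled where the adjusted p was under 0.05. No point crosses 0, and the points of Srebf2 and Idi1 are open in most leave-out settings.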

How the data were processed

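Poly(A) RNA of 10 mouse bladder libraries was sequenced from strand-specific libraries. The authors deposited one table of raw read counts per library over 55536 genes, without normalization; headers of the deposited tables name HISAT2, while the submitters' processing notes name STAR, featureCounts, DESeq2 and builds GRCm38 and hg38. The strand setting and any use of molecular identifiers are not given in the sources used here. Tables of the authors' DESeq2 comparisons, holding fold changes and p-values, were not used. All identifiers were matched to GENCODE vM21 (GRCm38). No gene row lacked a name.

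Groups came from the sample titles. For each comparison only the 2 groups concerned were fitted, in R 4.3.3 with edgeR 4.0.16: TMM scaling, filterByExpr, robust quasi-likelihood fit, two-sided test, Benjamini-Hochberg adjustment over all tested genes, threshold 0.05. Printed CPM used TMM over all 10 libraries, and SE was the log2 fold change over the root of F. Alternatives were DESeq2 1.42.0, RLE factors, no filter, limma-voom (limma 3.58.1) with sample weights, all groups in one fit, a replicate block, a Y-gene covariate, each library left out, and, chosen after seeing the data, close libraries summed in pairs. Scripts were tested on simulated data. Same-numbered libraries did not deviate together between WT and either knockout (r from -0.154 to 0.193) but did between the knockouts, where every r was over 0.1. The r of a comparison are not independent of each other, because deviations were taken from group means. The replicate numbers carry no label of litter or day.

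Named were all 8 members; Srebf1 and every listed sterol or fatty acid gene with an adjusted p under 0.05 against WT; 5 genes of most similar pattern; and Omd and Prelp. Some genes of this rule are not reported here and are not drawn, but stay in the list counts. The members and lists were chosen with earlier results of these data known.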

Additional observations from a re-analysis of the deposited data

How the results depend on the processing

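In OMD-/- against WT the 4 called members kept their direction in all 15 alternatives. Members called fell from 4 to 2 with no filter on low counts and to 2 with the replicate block, and to 0 with all 3 groups in one fit and 0 with close libraries summed in pairs, while leaving out each library gave 0 to 4. Genes called in all were 4899, 2485 in one fit of 3 groups and 1658 with close libraries summed, and 2951 to 4850 with a library left out, the lowest being without OMD-/- replicate 3. In PRELP-/- against WT 1209 genes were called, 2547 by DESeq2, 6973 by limma-voom, 2485 in one fit, 111 with the replicate block, 536 with the Y covariate, 13 with close libraries summed, and 475 to 3807 with a library left out, the highest without PRELP-/- replicate 1. Members called were 0, 4 by limma-voom, 1 in one fit and 0 to 2 with a library left out; Idi1 reversed to -0.51 by limma-voom. Of the called genes 19.2% were higher, 36.7% by DESeq2, 48.8% by limma-voom, 39.3% in one fit, 0% with the replicate block, 6.72% with the Y covariate, 0% with close libraries summed, 48.2% without PRELP-/- replicate 1 and 3.65% to 9.21% without any other library. Between the knockouts 1 gene was called, 88 by DESeq2, 5 with no filter, 1012 by limma-voom (1 member, Idi1), 3 in one fit, 43 with the replicate block, 2 with the Y covariate, 0 with close libraries summed and 1 to 36 with a library left out. The cause of these changes was not tested. Depth limits Fdps most, at 56 to 295 counts a library.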

Other observations

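The nonsterol isoprenoid branch draws on the product of Fdps. In OMD-/-, 2 of 9 of its genes were higher and 3 lower (14.3% and 15.1% of all tested genes) by edgeR's quasi-likelihood test, Benjamini-Hochberg adjusted: Dhdds, of dolichol synthesis, at a log2 fold change of 0.58 (adjusted p of 0.00123) and Fntb, a farnesyltransferase subunit, at 0.38 (0.0218), against Ggps1, geranylgeranyl pyrophosphate synthase, at -0.45 (0.00473), Pggt1b, at -0.38 (0.0141) and Coq2, of ubiquinone synthesis, at -0.31 (0.0396). In PRELP-/- 1 passed, Dhdds at 0.67 (0.0232), where 7.29% of all tested genes were called. Fntb shares exon bases on the same strand with Churc1 (mean of 7.76 CPM over the libraries), and how reads there were counted was not tested.

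The members did not all vary together over the 10 libraries. Pearson's r was 0.908 for Idi1 and Fdps, but -0.813 for Fdps and Srebf2 and -0.674 for Idi1 and Srebf2. For Hmgcs1 r was -0.12 with Idi1 and -0.023 with Fdps, and 0.598 and 0.639 when PRELP-/- replicate 1 was left out. With group means removed, r was -0.577 for Hmgcs1 and Idi1 and -0.701 for Hmgcs1 and Fdps. It was then 0.849 for Idi1 and Fdps, -0.688 for Fdps and Srebf2 and -0.535 for Idi1 and Srebf2. Averaged as z-scores over the 8 members, levels were -0.19, -0.23, 0.40 and 0.46 in WT, 0.37, -0.0018 and 0.066 in PRELP-/- and 0.44, -0.61 and -0.70 in OMD-/-. OMD-/- replicate 1 was therefore far above OMD-/- replicates 2 and 3. Of 14416 genes outside the lists of sterol and fatty acid genes, at a mean of at least 1 CPM, those most like this mean over 10 libraries by Pearson's r were Cdc16 (0.926), Zfp459 (0.922), Tmem170 (0.901), Hpn (0.899) and Hacd1 (0.886), a description over libraries that also share group and depth. None of the 5 passed the test in either knockout.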
